A study of Mus musculus with 8 samples.

Results

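The proteasome subunit genes comprise 40 of the 31815 genes in the count table from mouse CD8 T cells that carried, or did not carry, a retroviral vector for a TOX protein. They were chosen by symbol: Psma, Psmb, Psmc, Psmd or Psme followed by a digit, with Psmb8, Psmb9, Psmb10 and pseudogene symbols left out and at least 400 counts over the 8 libraries. The lowest of the 40 was Psmc3ip with 3691 summed counts and the highest Psmd2 with 116128. The rule left out 2 further symbols for low counts, Psma8 with 3 summed counts and Psmb11 with 0. By role, the 40 genes were 7 of the 20S alpha ring, 7 of the 20S beta ring, 6 ATPases and 3 non-ATPases of the 19S base, 8 of the 19S lid, 3 assembly chaperones of the 19S base and 4 activators. The other 2, Psmc3ip and Psme2b, matched the symbol prefixes only: Psmc3ip encodes a meiotic recombination factor named for its binding to Psmc3, and Psme2b is a close copy of Psme2.

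The cells were splenic CD8 T cells of OTI mice, genotype C57BL/6-Tg(TcraTcrb)1100Mjb/J, whose transgenic receptor recognises an ovalbumin peptide. Cultures received the peptide for 3 days and, at 24 h, a vector for TOXFL or TOXdeltaN with GFP behind an internal ribosome entry site. On day 5 the brightest 20% of GFP-positive cells and the GFP-negative cells of each culture were sorted. The groups were TOXFL-positive, TOXFL-negative, TOXdeltaN-positive and TOXdeltaN-negative cells, with 2 libraries each, and the GFP-negative cells had seen the same peptide and culture. Cells with a vector for GFP alone were not analysed here, so a GFP-positive against GFP-negative difference holds the TOX protein, the vector and the sort together. Nothing in the labels says that replicates 1 and 2 are separate mice or cultures, so a p-value here reflects only the spread between libraries, which may be technical. In bulk RNA, fewer cells with a transcript and less of it per cell cannot be told apart.

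The proteasome is the main machine for the regulated breakdown of cytosolic and nuclear proteins. Its 20S core is a barrel of alpha and beta subunits whose beta rings hold the proteolytic sites, and the 19S particle caps the barrel: ATPases of its base unfold the substrate and thread it into the core, while lid subunits help to bind it and remove its ubiquitin chain. In CD8 T cells, which grow and divide quickly after activation, the proteasome serves protein turnover and supplies peptides for MHC class I. In mammals the transcription factor NRF1, the product of Nfe2l1, raises transcription of the subunit genes together when proteasome activity is short, through antioxidant response elements in their promoters.

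Since most members differed in 1 direction between GFP-positive and GFP-negative cells, the promoters of 4 of them are shown: the catalytic subunit genes Psmb5 and Psmb6, in which the core of the antioxidant response element was found, and Psmb4 and Psmc1, which were called with the replicate block. The windows of 300 bases around the annotated gene start are from RefSeq on GRCm38.p6, printed 5′ to 3′ on the strand of the gene. They lie at chr14:54617946-54618245 (minus strand) for Psmb5, chr11:70525107-70525406 (plus strand) for Psmb6, chr3:94886909-94887208 (minus strand) for Psmb4 and chr12:100109952-100110251 (plus strand) for Psmc1. Capitals mark a match to TGACNNNGC or to CCAAT, both searched on both strands.
Psmb5: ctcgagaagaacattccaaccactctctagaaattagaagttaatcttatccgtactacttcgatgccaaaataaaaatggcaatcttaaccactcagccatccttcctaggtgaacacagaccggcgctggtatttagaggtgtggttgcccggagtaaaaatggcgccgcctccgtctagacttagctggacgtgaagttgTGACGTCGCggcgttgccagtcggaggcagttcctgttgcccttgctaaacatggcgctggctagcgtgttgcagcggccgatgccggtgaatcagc
Psmb6: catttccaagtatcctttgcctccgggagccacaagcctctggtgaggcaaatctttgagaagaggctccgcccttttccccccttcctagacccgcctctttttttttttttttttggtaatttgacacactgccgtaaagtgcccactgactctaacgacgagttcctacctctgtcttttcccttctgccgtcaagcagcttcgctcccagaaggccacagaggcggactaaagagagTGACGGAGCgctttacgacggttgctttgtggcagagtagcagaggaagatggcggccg
Psmb4: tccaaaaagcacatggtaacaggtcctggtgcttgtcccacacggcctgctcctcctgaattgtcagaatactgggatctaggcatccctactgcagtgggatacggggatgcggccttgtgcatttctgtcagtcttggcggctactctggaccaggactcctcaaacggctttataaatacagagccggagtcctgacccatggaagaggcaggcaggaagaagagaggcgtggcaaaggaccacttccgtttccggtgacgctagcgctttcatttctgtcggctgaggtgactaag
Psmc1: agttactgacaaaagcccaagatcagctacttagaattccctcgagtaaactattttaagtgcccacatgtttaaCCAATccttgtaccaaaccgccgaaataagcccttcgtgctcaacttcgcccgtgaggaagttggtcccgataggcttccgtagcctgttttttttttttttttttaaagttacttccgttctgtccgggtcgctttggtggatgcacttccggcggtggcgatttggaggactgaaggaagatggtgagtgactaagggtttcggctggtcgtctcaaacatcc
The TGACNNNGC match began 47 bases before the gene start in Psmb5 and 9 bases before it in Psmb6, and the CCAAT match 175 bases before it in Psmc1. Promoter windows were found for 34 of the 40 genes, 37 windows in all. TGACNNNGC was in 6 of the 37 (16.2%), against 12.4% of all 32851 windows in the table, and the genes were Psmb5, Psmb6, Psmc6, Psmd9, Psmd12 and Psme4. CCAAT, the box bound by NF-Y, was in 13 of the 37 (35.1%), against 37.4% of all windows. The shares are given as a description, since a match of letters is not a bound site.

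Total counts were 25059112 to 31240067 per library, and 0.792% to 0.991% of them fell on the 40 genes. Tox checked the labels of GFP status: it stood between 82.9 and 126 CPM (counts per 1e+06 counts, with TMM-scaled library sizes) in the 4 GFP-positive libraries, against 21.8 to 34.4 CPM in the 4 GFP-negative libraries. It did not check the construct labels, since TOXFL-positive libraries, at 105 and 126 CPM, overlapped TOXdeltaN-positive libraries, at 107 and 82.9 CPM. Summed T cell markers were at 3037 to 3511 CPM, with 5 of the 6 listed genes in the table. B cell markers summed to 14 to 17.5 CPM, and erythroid, myeloid and dendritic, and CD4 T and NK cell markers to at most 6.23 CPM, with Adgre1 at 0 in every library. Mitochondrially encoded genes took less of the counts in all 4 GFP-positive libraries, at 0.708% and 0.45% with TOXFL and 0.764% and 0.798% with TOXdeltaN, than in the GFP-negative libraries, at 0.832% and 0.834% with TOXFL and 0.909% and 0.894% with TOXdeltaN. Its part in the results was not tested. Because the library kits keep no strand, a transcript antisense to a member would add to its count, and reads shared with the many pseudogenes of proteasome subunits could be split by the authors' counting.

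Per kilobase of transcript, levels differed widely between and within the subcomplexes. The median over genes of the mean level in 8 libraries was 173 CPM per kb for the alpha ring and 237 CPM per kb for the beta ring. It was 140 CPM per kb for the base ATPases, 139 for the base non-ATPases and 113 for the lid. The assembly chaperones stood lowest, at 15.2 to 28.1 CPM per kb. The activators had a median of 235 CPM per kb and the widest range, with 473 CPM per kb for Psme2, which with Psme1 forms the interferon-inducible PA28 ring, and 10.9 CPM per kb for Psme4, which encodes the nuclear activator PA200. These levels are per length of 1 reference transcript per gene, so they depend on which transcript was taken. In the alpha rings, whose subunits are present in equal number, Psma3 was at 92.9 and Psma7 at 392 CPM per kb. Their reference transcripts had 2846 and 914 bases, and their summed counts were 60546 and 82006.

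**Figure D1:**
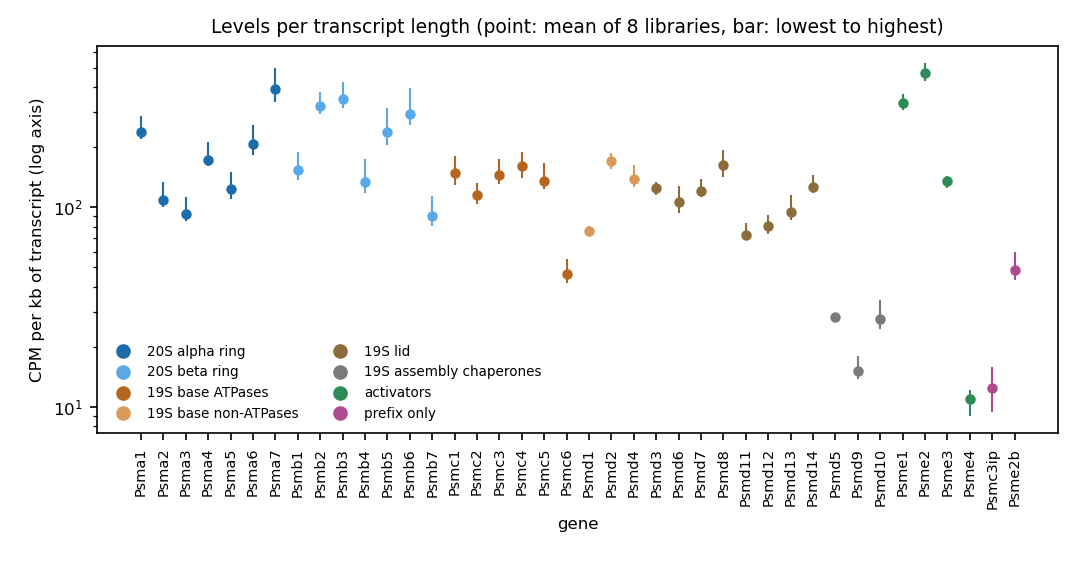
Level of each proteasome gene in CPM per kb of its reference transcript, on a log axis, coloured by subcomplex. The point is the mean of 8 libraries and the bar runs from the lowest to the highest library; Psme2 is highest at 473 and Psme4 lowest at 10.9 CPM per kb.

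Levels varied little between libraries. The coefficient of variation over 8 libraries had a median of 9.39% among the 40 genes and ran from 2.75% for Psmd5 to 17.9% for Psmc3ip. Over all tested genes the median was 13.2%, but the sets were not matched for level and the tested genes include some with few counts. Summed over the 40 genes, the level was 8583 and 8566 CPM in TOXFL-positive libraries, against 7900 and 8140 CPM in TOXFL-negative libraries. With the other construct the sum was 8557 and 9924 CPM in TOXdeltaN-positive libraries, against 8300 and 8474 CPM in TOXdeltaN-negative libraries. Both sums were thus higher with GFP without overlap, and 1 library, TOXdeltaN-positive replicate 2, stood far above the other 7.

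**Figure D2:**
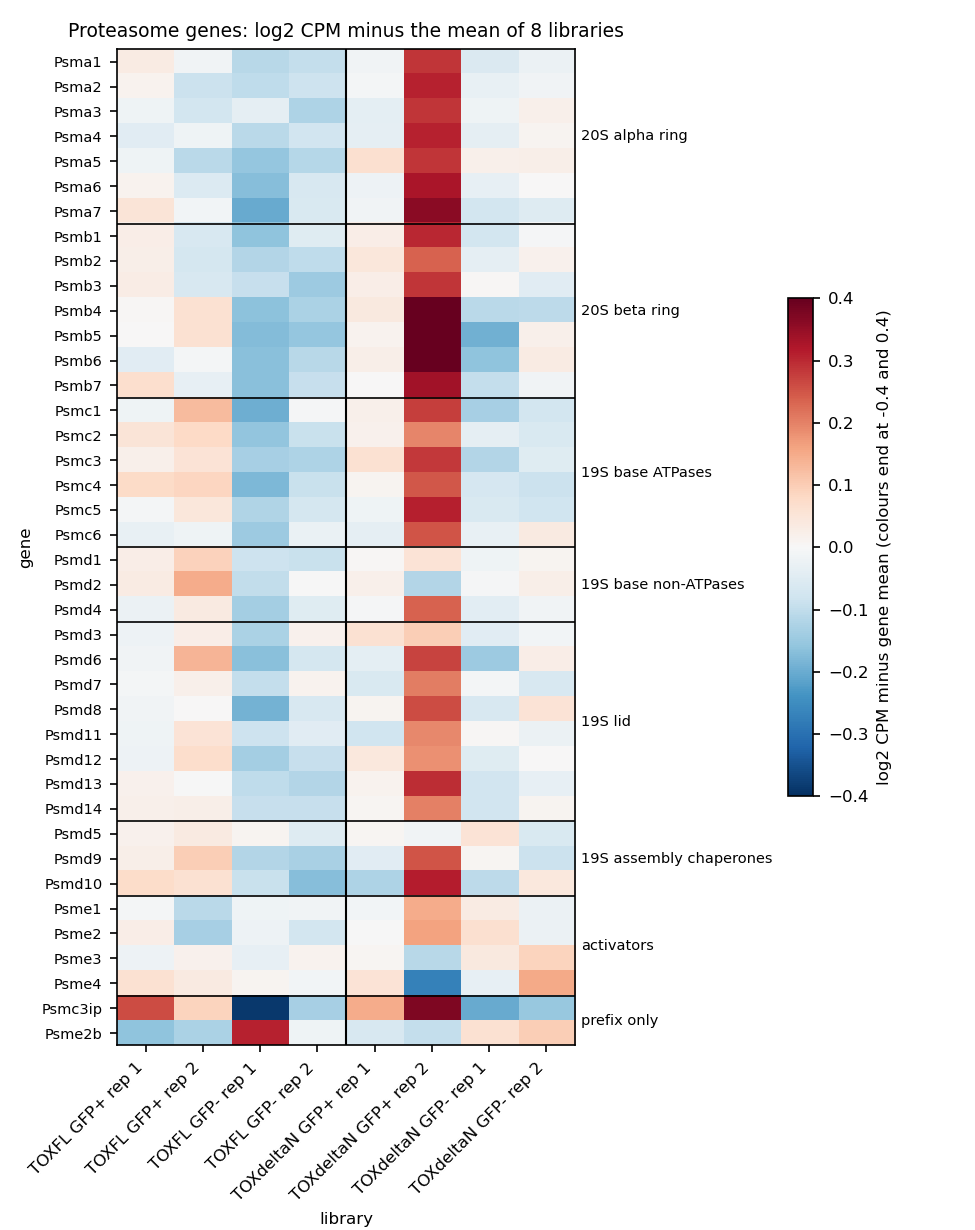
Level of each of the 40 genes (down) in each of the 8 libraries (across) as log2 CPM minus the gene's mean over the libraries, in shades of red above and blue below the mean. TOXdeltaN-positive replicate 2 is the highest library for 34 genes and TOXFL-negative replicate 1 the lowest for 25, with no count made over all tested genes. Shades end at 0.4 and -0.4.

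No proteasome gene passed the test between TOXFL-positive and TOXFL-negative cells. The median log2 fold change of the 40 genes was 0.11, against -0.003 over all 13329 tested genes, and 37 of the 40 lay above 0. With a correction for transcript length the members' median was 0.043. Of the 31 subunits of the 20S core and the 19S base and lid, 28 lay above 0 with this correction. Without it all 31 did, between 0.033 for Psma3 and 0.22 for Psmc4. Both TOXFL-positive libraries lay above both TOXFL-negative libraries for 29 of the 40 genes, against 24.9% of all tested genes. With edgeR's quasi-likelihood test, adjusted over all tested genes, 0 of the 40 were called at the threshold of 0.05 and 2 (5%) had an unadjusted p under it, against 1787 of all tested genes (13.4%). DESeq2 also called 0, and 305 of all genes. Among all tested genes edgeR called 6 (0.045%).

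With TOXdeltaN the median was 0.16, against 0.0054 over all tested genes, and 35 of the 40 genes lay above 0. The length correction took the members' median to 0.067. Of the 31 core, base and lid subunits 30 lay above 0 without this correction and 27 with it. Without it the exception was Psmd2 at -0.056, and the top was Psmb4 at 0.33. Both TOXdeltaN-positive libraries lay above both TOXdeltaN-negative libraries for 19 of the 40, against 21.1% of all tested genes. EdgeR called 0 of the 40, with 6 (15%) at an unadjusted p under 0.05, against 1645 of all tested genes (12.3%). DESeq2 called 0 of the 40 and 115 of all genes. Among all tested genes edgeR called 4 (0.03%). The size rested on 1 library: without TOXdeltaN-positive replicate 2 the median was 0.025 and 0 members were called, and without TOXdeltaN-positive replicate 1 it was 0.28 and 17 members were called, all higher, with 1755 calls among all tested genes.

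Averaged over both constructs, GFP-positive cells were higher for 37 of the 40 genes, with a median log2 of 0.13 against -0.00052 over all tested genes, and of 0.065 with the correction for transcript length. All 4 GFP-positive libraries lay above all 4 GFP-negative libraries for 9 of the 40, against 8.22% of all tested genes, and the 9 were Psma1, Psma7, Psmb4, Psmc2, Psmc3, Psmc4, Psmc5, Psmd13 and Psmc3ip. EdgeR called 0 of the 40, with 12 (30%) at an unadjusted p under 0.05, against 2926 of all tested genes (22%), and among all genes it called 342 (2.57%). DESeq2 called 1 of the 40, Psmc3ip (adjusted p = 0.0223), and 1038 of all genes. With the replicate number as a block 6 of the 40 were called, all higher, against 6.17% of all tested genes called higher. They were the core genes Psmb4 and Psmb5, the ATPase genes Psmc1, Psmc3 and Psmc4, and Psmc3ip. In the separate construct comparisons the block called 0 of the 40, against 1.58% of all genes higher with TOXFL and 0.848% higher with TOXdeltaN.

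The blocked calls in the average depended on single libraries. Without either TOXFL-negative library, either TOXdeltaN-negative library or TOXFL-positive replicate 1 the block called 0 members, with 346 to 822 calls among all tested genes. Without TOXFL-positive replicate 2 it called 1, Psmc3ip, with 1085 among all genes. Without TOXdeltaN-positive replicate 2 it called 7, with 2163 among all genes, and without TOXdeltaN-positive replicate 1 it called 31, all higher, with 3856 calls among all tested genes. Without the block, leaving out TOXdeltaN-positive replicate 1 gave 26 member calls, all higher, and 2633 among all genes. With the block and without TOXdeltaN-positive replicate 1 the separate comparisons gave 7 member calls with TOXFL and 29 with TOXdeltaN, with 1958 and 2860 among all genes, and without TOXdeltaN-positive replicate 2 they gave 7 with TOXFL, with 1924 among all genes.

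**Figure D3:**
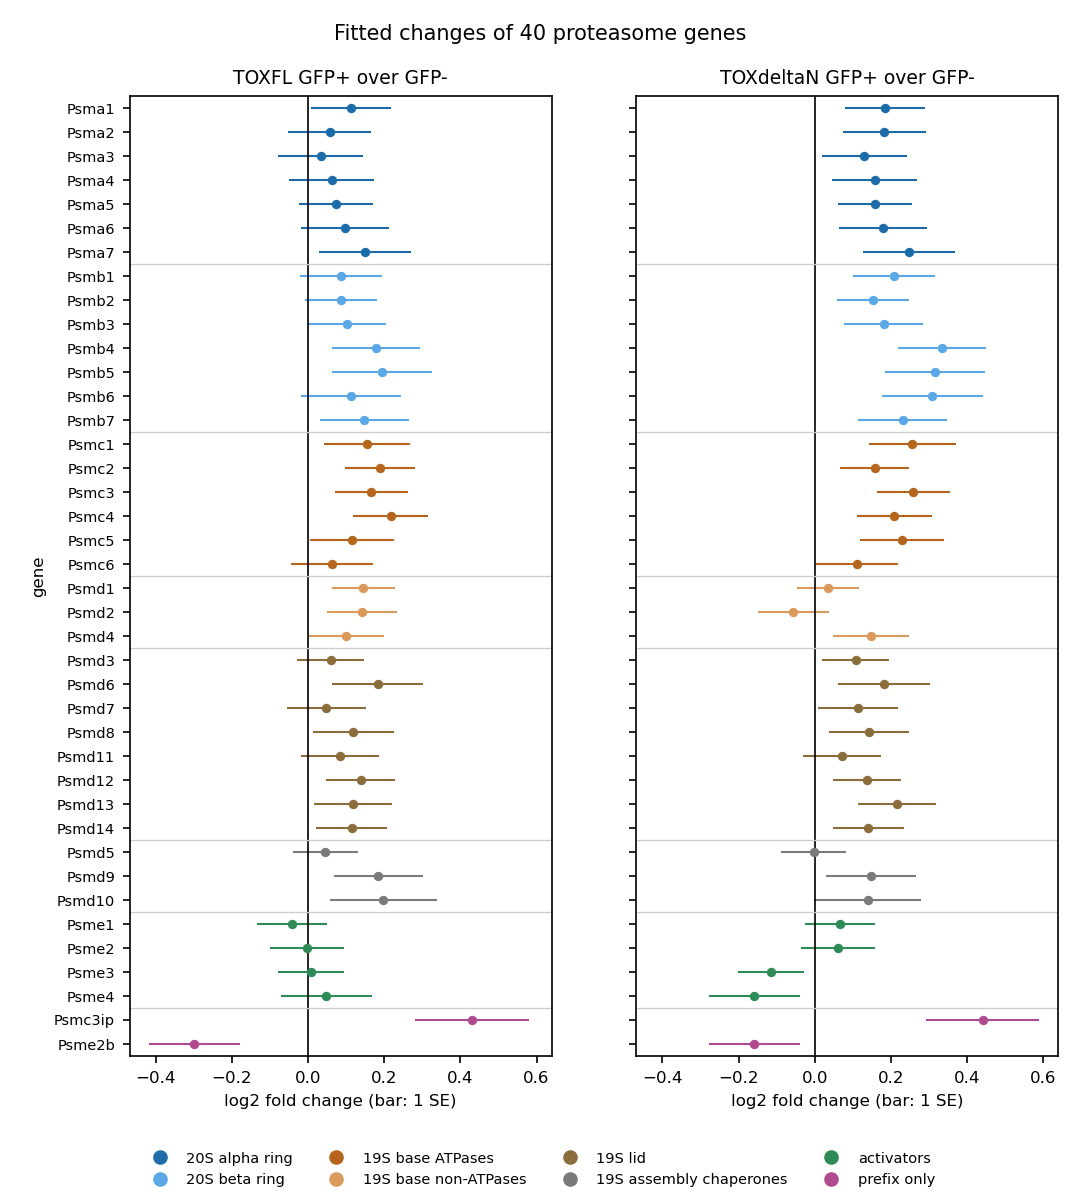
Fitted log2 fold change of each of the 40 genes with TOXFL (left) and with TOXdeltaN (right), GFP-positive over GFP-negative, with bars of 1 SE and colours by subcomplex. Nearly all core, base and lid genes lie right of 0, with medians over the 40 genes of 0.11 and 0.16, while the 4 activators lie on both sides.

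The alpha ring, whose subunits gate entry to the core, stood higher with GFP for 7 of 7 genes with both constructs. Median log2 fold changes were 0.072 with TOXFL and 0.18 with TOXdeltaN. With the correction for transcript length they were 0.019 and 0.026, with 5 and 6 of the 7 genes above 0. Psma7 had the largest average difference of the ring. It was at 369 and 353 CPM in TOXFL-positive libraries, against 310 and 341 CPM in TOXFL-negative libraries. With TOXdeltaN it was at 353 and 457 CPM in GFP-positive libraries, against 339 and 343 CPM in GFP-negative libraries. The groups did not overlap with either construct, but the gap was wide in TOXdeltaN-positive replicate 2 alone. The log2 fold changes of Psma7 were 0.15 (SE 0.12, edgeR adjusted p = 0.641) and 0.25 (SE 0.12, adjusted p = 0.435). Psma3 had the smallest difference, with 260 and 251 CPM in TOXFL-positive against 257 and 242 CPM in TOXFL-negative libraries. It was at 256 and 321 CPM in TOXdeltaN-positive libraries, against 261 and 267 CPM in TOXdeltaN-negative libraries. Both pairs of groups overlapped, and the averaged log2 difference of Psma3 was 0.082 (SE 0.079, adjusted p = 0.573).

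The beta ring, which holds the proteolytic sites, was also higher for 7 of 7 genes, with medians of 0.11 with TOXFL and 0.23 with TOXdeltaN. With the correction for transcript length the medians were 0.043 and 0.11, with 7 and 5 of the 7 genes above 0. The extremes of the beta ring were Psmb4 and Psmb2, both encoding subunits without a proteolytic site. Psmb4 (ENSMUSG00000005779.12, GRCm38 chromosome 3, 94884093 to 94886961) was at 157 and 163 CPM in TOXFL-positive libraries, against 140 and 143 CPM in TOXFL-negative libraries. It was at 161 and 206 CPM in TOXdeltaN-positive libraries, against 145 and 146 CPM in TOXdeltaN-negative libraries. Every GFP-positive library lay above every GFP-negative library. The averaged log2 difference of Psmb4 was 0.26 (SE 0.081, adjusted p = 0.113), and with the replicate block 0.25 (SE 0.069, adjusted p = 0.0379). Over all alternatives its adjusted p lay between 3.54e-05 and 0.341. Psmb2 was at 279 and 262 CPM in TOXFL-positive against 253 and 256 CPM in TOXFL-negative libraries. With TOXdeltaN it was at 284 and 324 CPM in GFP-positive libraries, against 268 and 278 CPM in GFP-negative libraries, again without overlap within a construct. Its averaged log2 difference was 0.12 (SE 0.066, adjusted p = 0.319).

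Of the catalytic subunits, Psmb5 encodes the chymotrypsin-like site. Psmb5 (ENSMUSG00000022193.7, chromosome 14, 54614119 to 54618022) was at 212 and 221 CPM in TOXFL-positive libraries, against 188 and 190 CPM in TOXFL-negative libraries. It was at 214 and 284 CPM in TOXdeltaN-positive libraries, against 185 and 214 CPM in TOXdeltaN-negative libraries. The TOXFL groups were apart, and TOXdeltaN-positive replicate 1 stood level with TOXdeltaN-negative replicate 2. Averaged over constructs, the log2 difference of Psmb5 was 0.26 (SE 0.093, adjusted p = 0.153), and with the replicate block 0.25 (SE 0.071, adjusted p = 0.0428); over all alternatives the adjusted p lay between 7.43e-05 and 0.45.

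Psmb6, which encodes the caspase-like site, was at 226 and 231 CPM in TOXFL-positive libraries, against 207 and 215 CPM in TOXFL-negative libraries. It was at 237 and 316 CPM in TOXdeltaN-positive libraries, against 208 and 238 CPM in TOXdeltaN-negative libraries, with 1 positive library below a negative one. The averaged log2 difference was 0.21 (SE 0.093, adjusted p = 0.223). For Psmb7, which encodes the trypsin-like site, the levels were 110 and 102 CPM in TOXFL-positive libraries, against 93.3 and 98.3 CPM in TOXFL-negative libraries. They were 105 and 132 CPM in TOXdeltaN-positive libraries, against 98.1 and 104 CPM in TOXdeltaN-negative libraries, where 1 positive library was barely above the higher negative one. The averaged log2 difference of Psmb7 was 0.19 (SE 0.082, adjusted p = 0.216).

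The immunoproteasome genes Psmb8, Psmb9 and Psmb10, whose products take the places of Psmb5, Psmb6 and Psmb7, were not called in any comparison. The ratio of Psmb8 to Psmb5 in CPM was 3.8 and 3.47 in TOXFL-positive libraries, against 4.13 and 3.92 in TOXFL-negative libraries, and 3.83 and 3.32 in TOXdeltaN-positive against 4.3 and 3.63 in TOXdeltaN-negative libraries. For Psmb10 over Psmb7 it was 2.21 and 1.99 in TOXFL-positive libraries, against 2.7 and 2.28 in TOXFL-negative libraries, and 2.41 and 1.93 in TOXdeltaN-positive against 2.66 and 2.19 in TOXdeltaN-negative libraries. Within each construct and replicate number both ratios were lower in the GFP-positive library, though replicate 1 of one status overlapped replicate 2 of the other with TOXdeltaN. Psmb9 over Psmb6 lay between 0.901 and 1.18 in all libraries. It was slightly higher in the GFP-positive library in TOXFL replicate 1, at 1.158 against 1.145. In TOXFL replicate 2 and both TOXdeltaN replicates it was lower in the GFP-positive library. The ratios were not corrected for transcript length. In the average, Psmb8 had a log2 difference of 0.10 (SE 0.067, adjusted p = 0.394), Psmb9 of 0.12 (SE 0.063, adjusted p = 0.308) and Psmb10 of -0.017 (SE 0.081, adjusted p = 0.928). With the correction for transcript length the median of these 3 genes in the average was 0.0056, against 0.10 without it. The 3 genes were left out of the 40 by the rule.

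The ATPases of the base, which form the ring that unfolds substrates, stood higher for 6 of 6 genes, with medians of 0.16 with TOXFL and 0.22 with TOXdeltaN. With the correction for transcript length the medians were 0.088 and 0.081, with 6 of 6 genes above 0 in each. Psmc4 (ENSMUSG00000030603.16, chromosome 7, 28041707 to 28050101) had the largest average difference. It was at 243 and 245 CPM in TOXFL-positive libraries, against 203 and 216 CPM in TOXFL-negative libraries. It was at 232 and 273 CPM in TOXdeltaN-positive libraries, against 220 and 217 CPM in TOXdeltaN-negative libraries, so that no GFP-positive library overlapped a GFP-negative one. The log2 fold changes of Psmc4 were nearly equal, 0.22 with TOXFL (SE 0.098, adjusted p = 0.377) and 0.21 with TOXdeltaN (SE 0.098, adjusted p = 0.424). The averaged value was 0.21 (SE 0.07, adjusted p = 0.121) and with the replicate block 0.21 (SE 0.06, adjusted p = 0.0445), and over all alternatives the adjusted p lay between 0.000273 and 0.379.

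Psmc3 (ENSMUSG00000002102.15, chromosome 2, 91054009 to 91066369) was at 239 and 244 CPM in TOXFL-positive libraries, against 215 and 216 CPM in TOXFL-negative libraries. It was at 246 and 286 CPM in TOXdeltaN-positive libraries, against 217 and 228 CPM in TOXdeltaN-negative libraries, again with all GFP-positive libraries on top. Its averaged log2 difference was 0.21 (SE 0.068, adjusted p = 0.114) and with the block 0.21 (SE 0.058, adjusted p = 0.0389), with adjusted p between 0.000267 and 0.374 over all alternatives. Psmc1 (ENSMUSG00000021178.9, chromosome 12, 100110154 to 100123405) was at 233 and 258 CPM in TOXFL-positive libraries, against 206 and 235 CPM in TOXFL-negative libraries, where the groups overlapped. It was at 239 and 286 CPM in TOXdeltaN-positive libraries, against 215 and 225 CPM in TOXdeltaN-negative libraries. The overlap with TOXFL was between numbers, since each GFP-positive library lay above the GFP-negative library of its own replicate number. For Psmc1 the averaged log2 difference was 0.21 (SE 0.08, adjusted p = 0.176) and with the block 0.20 (SE 0.056, adjusted p = 0.0405), with adjusted p between 0.000783 and 0.487 over all alternatives. Psmc6 had the smallest difference among the ATPases, with 101 and 102 CPM in TOXFL-positive against 93.4 and 101 CPM in TOXFL-negative libraries. It was at 101 and 123 CPM in TOXdeltaN-positive libraries, against 101 and 106 CPM in TOXdeltaN-negative libraries, and TOXdeltaN-positive replicate 2 stood above the other 7 libraries.

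The non-ATPase subunits of the base had medians of 0.14 with TOXFL and 0.035 with TOXdeltaN. With the correction for transcript length the medians were 0.13 and 0.0049. Psmd2, the scaffold that docks carriers of ubiquitinated proteins, was at 514 and 557 CPM in TOXFL-positive libraries, against 470 and 502 CPM in TOXFL-negative libraries. It was at 510 and 463 CPM in TOXdeltaN-positive libraries, against 501 and 511 CPM in TOXdeltaN-negative libraries. Psmd2 was thus apart with TOXFL and lowest of all 8 libraries in the library where most other members were highest. Its log2 fold changes were 0.14 (SE 0.092, adjusted p = 0.553) and -0.056 (SE 0.092, adjusted p = 0.823), a difference of 0.20 (SE 0.13, adjusted p = 1). Psmd4, a ubiquitin receptor, was at 181 and 189 CPM in TOXFL-positive libraries, against 168 and 178 CPM in TOXFL-negative libraries. It was at 184 and 217 CPM in TOXdeltaN-positive libraries, against 179 and 183 CPM in TOXdeltaN-negative libraries, narrowly without overlap. The third gene, the scaffold Psmd1, had log2 fold changes of 0.15 (SE 0.082, adjusted p = 0.489) with TOXFL and 0.035 (SE 0.082, adjusted p = 0.88) with TOXdeltaN.

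The lid, which includes the deubiquitinase encoded by Psmd14, stood higher for 8 of 8 genes with both constructs, with medians of 0.12 and 0.14. With the correction for transcript length the medians were 0.056 and 0.057, with 7 and 8 of the 8 genes above 0. Psmd6 had the largest average difference, with 145 and 161 CPM in TOXFL-positive against 130 and 139 CPM in TOXFL-negative libraries. It was at 142 and 177 CPM in TOXdeltaN-positive libraries, against 132 and 149 CPM in TOXdeltaN-negative libraries, which overlapped. Psmd6 had an averaged log2 difference of 0.18 (SE 0.085, adjusted p = 0.246). Psmd11 had the smallest, with 205 and 216 CPM in TOXFL-positive against 196 and 201 CPM in TOXFL-negative libraries. It was at 196 and 237 CPM in TOXdeltaN-positive libraries, against 208 and 204 CPM in TOXdeltaN-negative libraries, so replicate 1 and replicate 2 pointed opposite ways.

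Of the chaperones that assemble the base, Psmd9 and Psmd10 were at lower CPM than every core, base and lid gene. Psmd5 was low only per kilobase, with a reference transcript of 4397 bases. Psmd10, which binds Psmc4 during assembly, was at 41.4 and 41 CPM in TOXFL-positive libraries, against 36.9 and 34.9 CPM in TOXFL-negative libraries. It was at 36.1 and 48.9 CPM in TOXdeltaN-positive libraries, against 36.6 and 40.5 CPM in TOXdeltaN-negative libraries. The groups were apart with TOXFL and overlapped with TOXdeltaN. For Psmd10 the average was a log2 difference of 0.17 (SE 0.0997, adjusted p = 0.35). Psmd5 had the lowest coefficient of variation of the 40 genes, with 125 and 126 CPM in TOXFL-positive against 124 and 119 CPM in TOXFL-negative libraries. It was at 124 and 122 CPM in TOXdeltaN-positive libraries, against 128 and 118 CPM in TOXdeltaN-negative libraries, and its averaged log2 difference was 0.021 (SE 0.061, adjusted p = 0.877).

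The activators, which open the core without the 19S particle, had values on both sides of 0. Their median log2 fold change was 0.0021 with TOXFL and -0.026 with TOXdeltaN, with 2 of 4 genes above 0 in each. With the correction for transcript length the medians were -0.048 and -0.10, with 1 of 4 genes above 0 in each. Psme2 was at 462 and 414 CPM in TOXFL-positive libraries, against 447 and 431 CPM in TOXFL-negative libraries. It was at 453 and 508 CPM in TOXdeltaN-positive libraries, against 475 and 446 CPM in TOXdeltaN-negative libraries, and both pairs of groups overlapped. Psme4 was at 73.8 and 72.4 CPM in TOXFL-positive libraries, against 71.3 and 70.2 CPM in TOXFL-negative libraries. It was at 73.5 and 58.6 CPM in TOXdeltaN-positive libraries, against 69.1 and 78.5 CPM in TOXdeltaN-negative libraries, with the low value again in replicate 2. In the average Psme2 had the highest log2 difference of the 4 at 0.029 (SE 0.069, adjusted p = 0.843) and Psme4 the lowest at -0.055 (SE 0.085, adjusted p = 0.743). No test of the activators against the other members was made.

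Psmc3ip, which is no subunit, had the largest difference of the 40 genes. Psmc3ip (ENSMUSG00000019303.14, chromosome 11, 101091823 to 101095436) was at 19 and 16.9 CPM in TOXFL-positive libraries, against 12.1 and 14.5 CPM in TOXFL-negative libraries. It was at 17.6 and 20.6 CPM in TOXdeltaN-positive libraries, against 13.8 and 14.3 CPM in TOXdeltaN-negative libraries. All 4 GFP-positive libraries stood above all 4 GFP-negative ones. The log2 fold changes of Psmc3ip were 0.43 with TOXFL (SE 0.15, adjusted p = 0.264) and 0.44 with TOXdeltaN (SE 0.15, adjusted p = 0.341). The averaged value was 0.44 (SE 0.11, adjusted p = 0.0611) and with the replicate block 0.44 (SE 0.099, adjusted p = 0.0193), and over all alternatives the adjusted p lay between 0.00338 and 0.254. Psme2b (chromosome 11, 48945354 to 48946190) was lower in GFP-positive libraries without overlap, with 36 and 36.9 CPM in TOXFL-positive against 49.9 and 39.8 CPM in TOXFL-negative libraries. It was at 38.6 and 37.7 CPM in TOXdeltaN-positive libraries, against 42 and 43.1 CPM in TOXdeltaN-negative libraries, with an averaged log2 difference of -0.23 (SE 0.085, adjusted p = 0.156). The split of reads between Psme2b and Psme2 is uncertain.

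Taken by replicate number, the shift with TOXFL was alike in both numbers and that with TOXdeltaN was not. With TOXFL the median log2 ratio of GFP-positive to GFP-negative library over the 40 genes was 0.12 in replicate 1, with 39 of 40 above 0, and 0.084 in replicate 2, with 35 of 40 above 0. With TOXdeltaN it was 0.046 in replicate 1, with 29 of 40 above 0, and 0.27 in replicate 2, with 36 of 40 above 0. By subcomplex, the replicate 1 and 2 medians with TOXdeltaN were 0.024 and 0.31 for the alpha ring, 0.099 and 0.35 for the beta ring and 0.065 and 0.33 for the ATPases. For the lid they were 0.088 and 0.21. With TOXFL the same medians were 0.14 and 0.05 for the alpha ring, 0.17 and 0.082 for the beta ring and 0.17 and 0.15 for the ATPases, and 0.11 in both numbers for the lid.

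**Figure D4:**
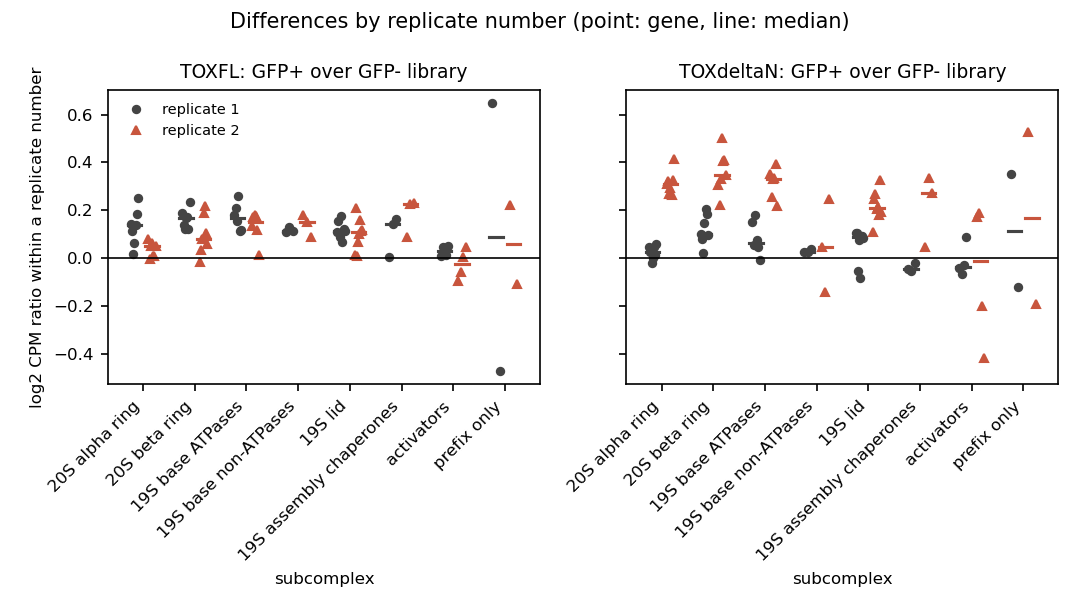
Log2 ratio of the GFP-positive to the GFP-negative library of the same construct and replicate number, 1 point per gene and a line at the median, by subcomplex. With TOXFL (left) replicates 1 and 2 have medians over the 40 genes of 0.12 and 0.084; with TOXdeltaN (right) they are 0.046 and 0.27.

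TOXdeltaN-positive replicate 2 was the highest of the 8 libraries for 34 of the 40 genes and for 14 of 14 core genes. The share of all tested genes that were highest or lowest in a given library was not counted. Over all genes, the 2 TOXdeltaN-positive libraries differed more than those of any other group (chi-square per degree of freedom 41.8). Between replicates 2 and 1 of that group the 40 genes differed by a median log2 of 0.26, against 0.018 between the TOXFL-positive libraries. The same library held more of other short transcripts: the 561 genes with a reference transcript under 1000 bases had a median log2 deviation of 0.30 from their mean over libraries, and the 394 with one over 8000 bases a median of -0.27. In TOXFL-negative replicate 1, the lowest library for 25 of the 40 genes, these values were -0.11 and 0.22. The long-transcript median separated the libraries by GFP status with both constructs. It was -0.014 and -0.09 in TOXFL-positive libraries, against 0.22 and 0.13 in TOXFL-negative libraries. It was -0.028 and -0.27 in TOXdeltaN-positive libraries, against 0.069 and 0.039 in TOXdeltaN-negative libraries. The short-transcript median did so only with TOXdeltaN, at 0.045 and 0.30 in GFP-positive against -0.053 and 0.0027 in GFP-negative libraries. With TOXFL it overlapped, at 0.015 and -0.087 in GFP-positive against -0.11 and -0.082 in GFP-negative libraries. The proteasome genes have short transcripts, with a median of 1490 bases against 2810 over tested genes, and 29 of the 40 lie under 2000 bases. Of the 6 genes that were not highest in TOXdeltaN-positive replicate 2, Psmd1, Psmd2, Psmd5, Psme3 and Psme4 have transcripts of 3112, 2961, 4397, 2664 and 6491 bases, and Psme2b one of 837 bases. Other members with long transcripts were highest in that library, among them Psma2 with 2911, Psmd11 with 2848 and Psma3 with 2846 bases. That library also had the fewest counts, 25059112.

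**Figure D5:**
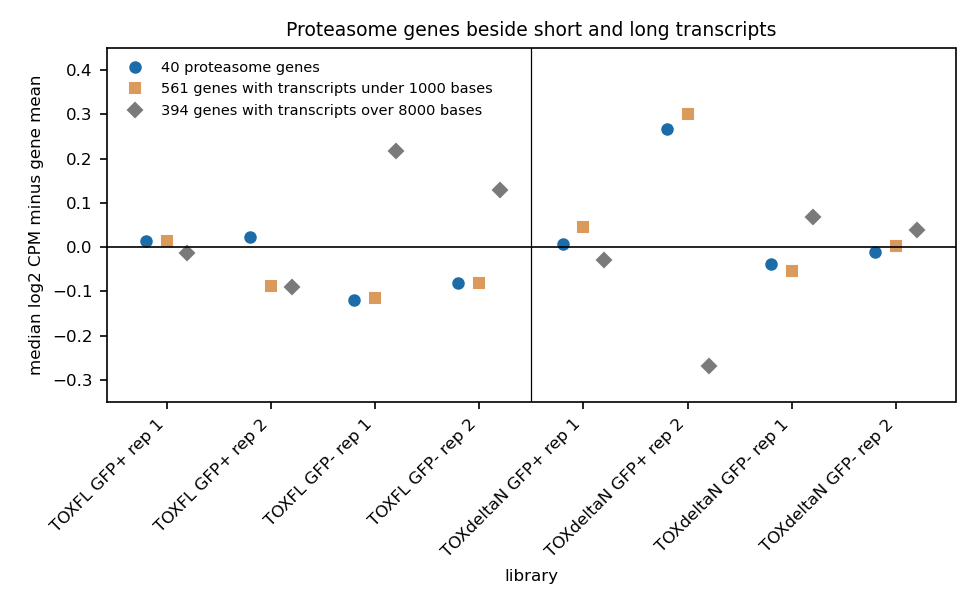
Median log2 CPM minus the mean over 8 libraries, per library, for the 40 proteasome genes (circles), 561 genes with short transcripts (squares) and 394 genes with long transcripts (diamonds). In TOXdeltaN-positive replicate 2 the proteasome and short-transcript medians are 0.27 and 0.30 and the long-transcript median is -0.27; markers of 1 library are set side by side.

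A correction for transcript length within each library, added after the data were seen, took the members' median down to 0.043 with TOXFL and 0.067 with TOXdeltaN. In the average it was 0.065, with 32 of 40 genes above 0. With this correction edgeR called 0 of the 40 in the average without the block, with 454 calls among all genes, and 2 of the 40 with the block, with 1673 among all genes. The 2 were Psmc3ip, higher at 0.32 (adjusted p = 0.0464), and Psme2b, lower at -0.35 (adjusted p = 0.0207). The 5 subunit genes called with the block alone were not called after it, with log2 differences of 0.13 for Psmb4 (adjusted p = 0.0977), 0.12 for Psmb5 (0.129), 0.11 for Psmc1 (0.113), 0.13 for Psmc3 (0.0779) and 0.11 for Psmc4 (0.131). The length correction first planned used all exons of a gene. With the block it called Psmc3ip, Psme2b and a subunit gene, the ATPase gene Psmc2, with 1637 calls among all genes. Psmc2 was higher at 0.19 (edgeR adjusted p = 0.0428). What sets the length difference between these libraries was not tested.

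TOXFL and TOXdeltaN were also set against each other, which asks whether the proteasome levels differ between the constructs. No member was called in the difference of the construct effects, where the median of the 40 was -0.066 and 0 had an unadjusted p under 0.05. Of all genes edgeR called 0% there, with 314 at an unadjusted p under 0.05, and DESeq2 called 5. TOXFL-positive cells had a median log2 of -0.13 against TOXdeltaN-positive cells, with 35 of 40 genes below 0 and 7 of 40 lower without overlap, against 16.1% of all tested genes. EdgeR called 0 of the 40 there, with 1 at an unadjusted p under 0.05, Psma5. Of all genes it called 0%, with 785 at an unadjusted p under 0.05, and DESeq2 called 18. Psma5, of the alpha ring, was at 151 and 142 CPM in TOXFL-positive libraries, against 159 and 186 CPM in TOXdeltaN-positive libraries (log2 -0.24, SE 0.097, adjusted p = 0.823). DESeq2 called 0 of the 40 in each of these comparisons. Without TOXdeltaN-positive replicate 2 the median between the GFP-positive groups was 0.0073, and without TOXdeltaN-positive replicate 1 it was -0.23 with 9 members called lower and 889 calls among all genes. The difference of the effects moved likewise, to 0.074 without replicate 2 and -0.17 without replicate 1 of that group. With the correction for transcript length and all libraries in, the median of the difference of effects was -0.0039, with 19 of 40 above 0. Between the GFP-positive groups the corrected median was -0.027, with 14 of 40 above 0.

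The GFP-negative groups, which were sorted without GFP, differed by a median log2 of -0.068 in TOXFL-negative against TOXdeltaN-negative cells, with 38 of 40 genes below 0, and by -0.031 with the correction for transcript length. Both TOXFL-negative libraries lay below both TOXdeltaN-negative libraries for 21 of the 40, against 16.6% of all tested genes. EdgeR called 0 of the 40 there and DESeq2 0, with 0 at an unadjusted p under 0.05. Of all genes edgeR called 0%, with 328 at an unadjusted p under 0.05, and DESeq2 called 5.

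Genes linked to the proteasome outside the symbol rule were read from lists chosen with earlier results known. Their counts are to be set beside all tested genes in the average, of which 22% had an unadjusted p under 0.05. EdgeR called 2.57% of all tested genes there, and with the block 6.17% were called higher. Of 13 subunits, inhibitors and assembly factors outside the prefixes, 10 lay above 0 in the average, with a median log2 of 0.11, 0 called by edgeR and 3 at an unadjusted p under 0.05. With the block 2 were called higher, Uchl5, a deubiquitinase of the 19S particle, at 0.23 (SE 0.058, adjusted p = 0.0279) and Psmg1, a chaperone of the core, at 0.22 (SE 0.065, adjusted p = 0.0499). Uchl5 was at 110 and 120 CPM in TOXFL-positive libraries, against 92.1 and 106 CPM in TOXFL-negative libraries. It was at 106 and 132 CPM in TOXdeltaN-positive libraries, against 93.3 and 106 CPM in TOXdeltaN-negative libraries, so the GFP-positive libraries were higher within each number. Of 14 genes for ubiquitin and its delivery 7 lay above 0, with a median of -0.02, 0 called and 2 at an unadjusted p under 0.05, and with the block 1, the polyubiquitin gene Ubb, at 0.20 (SE 0.05, adjusted p = 0.0302). Of the 8 genes of the NRF1 pathway 3 lay above 0, with a median of -0.083, 0 were called in either fit and 1 had an unadjusted p under 0.05. With the correction for transcript length the NRF1 median in the average was -0.0066, with 4 of 8 genes above 0. The corrected medians were 0.04 for the 13 genes outside the prefixes and -0.05 for the 14 ubiquitin genes. Nfe2l1 itself was at 90.9 and 101 CPM in TOXFL-positive libraries, against 96.8 and 96.7 CPM in TOXFL-negative libraries. It was at 89 and 78.3 CPM in TOXdeltaN-positive libraries, against 95 and 98.8 CPM in TOXdeltaN-negative libraries, lower in both numbers. The averaged log2 difference was -0.11 for Nfe2l1 (SE 0.07, adjusted p = 0.374) and -0.086 for its relative Nfe2l2 (SE 0.095, adjusted p = 0.631).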

How the data were processed

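RNA was sequenced from 8 libraries of sorted mouse CD8 T cells (4 groups of 2), each made from 8 ng of total RNA with SMART-Seq v4 and Nextera XT kits, per the labels' protocols. The tools bcl2fastq 2.20, cutadapt, STAR 2.6.1 and RSEM 1.2.28 and the build GRCm38 are named per the submitters' processing notes. The deposited values are estimated counts per gene in whole numbers, with no normalisation. The annotation release is not given in the sources used here. Symbols came from the table, and coordinates and transcript lengths from GENCODE M21 where the versioned identifier matched (31173 of 31815 genes); 92 spike-in entries held 0 counts.

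Members and gene lists were chosen with earlier results of these data known, so no list was tested as a whole. The tests used edgeR 4.0.16 under R 4.3.3, with filterByExpr by group (13329 genes kept), TMM factors of 0.989 to 1.02, and a quasi-likelihood F-test on 4 group means over all 8 libraries, so that the groups share 1 estimate of the spread. P-values were adjusted by the Benjamini-Hochberg method over all tested genes, with a threshold of 0.05. The biological coefficient of variation was 0.132, and in all 4 groups the 2 libraries differed beyond sampling noise (chi-square per degree of freedom 11.9 to 41.8). Values at 25059112 or more counts per library are limited by that spread more than by depth.

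Replicate numbers were taken as pairing the libraries: deviations from group means of same-numbered libraries correlated across tested genes in all 6 pairs of groups (r = 0.168 to 0.241). This comes from the data, not the labels, and genes are not independent replicates. The fit with the number as a block (coefficient of variation 0.0958) is given where it changed a call. DESeq2 1.42.0, its size factors, no filter, a length correction (a lowess curve, span 0.3, of each library's deviation on log length), fits of 2 groups alone and omission of each library were the alternatives. The correction on 1 reference transcript per gene and the blocked omissions were chosen after seeing the data. Genes were named by rule: the largest and smallest averaged difference in each subcomplex, the catalytic subunits, and members called in either fit. Psmc2, Psmd1, Psma5 and the genes listed only by count or overlap were named after their values were seen. The model fits were tested on simulated counts.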

Additional observations from a re-analysis of the deposited data

How the results depend on the processing

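Among the 20 genes named by rule, sign changes against the main value occurred in 11 of 500 values with TOXFL, 34 of 500 with TOXdeltaN, 25 of 480 in their average, 88 of 480 in the difference of effects, 51 of 500 between the GFP-positive groups and 31 of 500 between the GFP-negative groups, and 0 of these values were called. In the order TOXFL, TOXdeltaN, their average, the difference of effects, GFP-positive between constructs and GFP-negative between constructs, DESeq2 called 305, 115, 1038, 5, 18 and 5 of all genes, and no filter on low counts gave 678, 516, 1665, 45, 116 and 37. Pairing by the replicate block gave 474, 246 and 1712 in the comparisons of TOXFL, TOXdeltaN and their average and 1 between the GFP-positive groups. With the block and the length correction these were 603, 327, 1637 and 4, and with the block and the transcript length correction 684, 367, 1673 and 5. Fits of 2 groups alone gave 1 with TOXFL, 0 with TOXdeltaN and 1 between the GFP-positive groups. Members called in the average were 1 with DESeq2, 3 without the filter, 6 with the block, 3 with the block and length correction and 2 with the block and transcript length correction. The transcript length correction gave a member median of 0.067 with TOXdeltaN and -0.027 between the GFP-positive groups, and with the block 0.067 and -0.027. The block changed no other call of a member with all libraries in.

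Leaving out 1 library at a time, in the same order, gave member medians of 0.081 to 0.14, 0.025 to 0.28, 0.073 to 0.19, -0.17 to 0.074, -0.23 to 0.0073 and -0.093 to -0.049. Members called were 0 to 0, 0 to 17, 0 to 26, 0 to 0, 0 to 9 and 0 to 0, and all genes called were 0 to 216, 0 to 1755, 7 to 2633, 0 to 27, 0 to 889 and 0 to 1. With the replicate block the medians were 0.051 to 0.16, 0.051 to 0.28, 0.084 to 0.19, -0.16 to 0.062, -0.23 to -0.013 and -0.095 to -0.045. Members called with the block were 0 to 7, 0 to 29, 0 to 31, 0 to 2, 0 to 23 and 0 to 0, and all genes called 33 to 1958, 5 to 2860, 346 to 3856, 0 to 724, 0 to 2105 and 0 to 9. Where a group is left with 1 library, that library is assumed to vary like the other groups. The lowest and highest medians with TOXdeltaN came without TOXdeltaN-positive replicates 2 and 1. The cause was not tested. With 2 libraries per group, differences as small as the members' medians are near the pooled replicate spread of 0.085 (SD of the members' median log2 CPM over the 4 groups). The groups differed in it. Median deviations of the members from their gene means were 0.0079 and 0.27 in TOXdeltaN-positive and 0.013 and 0.023 in TOXFL-positive libraries. They were -0.12 and -0.08 in TOXFL-negative and -0.039 and -0.012 in TOXdeltaN-negative libraries. A group's own spread is poorly known from 2 libraries.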
